A study of Mus musculus with 4 samples.

Results

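The expression of 10 NRF2 pathway genes was examined in sorted cells of the mouse lower incisor that carried a conditional knockout of Ptip, against cells without Cre. The members were Nqo1, a quinone reductase gene, the transcription factor genes Nfe2l2 and Nfe2l3, and 7 further antioxidant target genes of NRF2 (Gclc, Gclm, Slc7a11, Txnrd1, Srxn1, Hmox1 and Gstm1). They were taken by symbol, 10 of 55487 genes in the table. Nqo1 and Nfe2l3 were chosen by their measured counts in these same 4 libraries, as genes far above the controls in the knockouts, so their values are a description and carry no test. The other 8 were listed for their known role, with earlier results of these data known. Each of the 10 passed the filter on low counts.

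The 4 libraries came from C57 mice at postnatal day 30, 2 from knockouts with floxed Ptip alleles and Sp7-cre (Ptip f/f;Sp7-cre) and 2 from controls with the floxed alleles alone (Ptip f/f). The labels call the tissue dental pulp and the cells dental progenitors, which had been sorted by the absence of CD45, Ter119 and Tie2, and polyadenylated RNA was sequenced. Ptip, annotated as Paxip1, encodes a subunit of histone H3 lysine 4 methyltransferase complexes. The Cre is driven from Sp7, which marks cells that go on to form bone or dentine, and the loss of Ptip in each cell type was not measured. As the controls carry no Cre, effects of Cre itself and of losing Ptip cannot be told apart. Whether a library holds 1 animal or several is not given in the labels.

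NRF2, the protein of Nfe2l2, binds antioxidant response elements in DNA together with a small MAF protein and switches on genes that make glutathione, reduce thioredoxin and detoxify quinones and heme. Without stress, the adaptor KEAP1 hands NRF2 to a CUL3 ubiquitin ligase for destruction, so the activity of NRF2 is set largely by protein stability and can differ with no change in its mRNA. NRF3, the protein of Nfe2l3, is a relative that also pairs with small MAF proteins, and BACH1 and BACH2 compete for the same elements as repressors. In mice, loss of NRF2 takes the iron colour from the incisor enamel.

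To show the DNA next to the start sites of the genes the comparison turns on, 5 promoter windows from RefSeq (GRCm38.p6, 250 bases before to 50 after the start) are given 5′ to 3′ on the gene's strand. They are Nqo1 at chr8:107403156-107403455 on the minus strand, Nfe2l3 at chr6:51432419-51432718 on the plus strand, Gclm at chr3:122245307-122245606 on the plus strand, 1 of 3 Txnrd1 windows at chr10:82858956-82859255 on the plus strand, and Srxn1 at chr2:152105274-152105573 on the plus strand. Capitals mark matches on either strand to the core of the antioxidant response element, searched as TGACNNNGC.
Nqo1: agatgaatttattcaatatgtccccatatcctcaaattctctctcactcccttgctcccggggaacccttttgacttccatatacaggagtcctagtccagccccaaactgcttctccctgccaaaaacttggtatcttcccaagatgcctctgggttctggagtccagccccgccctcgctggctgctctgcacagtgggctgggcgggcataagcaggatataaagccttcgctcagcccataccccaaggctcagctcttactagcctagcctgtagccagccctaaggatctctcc
Nfe2l3: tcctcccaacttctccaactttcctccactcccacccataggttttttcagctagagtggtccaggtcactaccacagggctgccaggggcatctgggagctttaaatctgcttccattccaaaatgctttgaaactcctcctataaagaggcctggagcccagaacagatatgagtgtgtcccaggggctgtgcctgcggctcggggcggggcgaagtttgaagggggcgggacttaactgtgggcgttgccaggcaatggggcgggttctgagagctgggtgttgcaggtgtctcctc
Gclm: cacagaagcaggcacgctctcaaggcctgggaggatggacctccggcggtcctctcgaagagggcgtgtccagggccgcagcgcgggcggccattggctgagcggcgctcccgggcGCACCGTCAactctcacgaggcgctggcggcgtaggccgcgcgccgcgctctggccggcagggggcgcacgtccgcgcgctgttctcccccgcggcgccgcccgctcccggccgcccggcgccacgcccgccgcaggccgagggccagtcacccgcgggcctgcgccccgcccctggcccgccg
Txnrd1: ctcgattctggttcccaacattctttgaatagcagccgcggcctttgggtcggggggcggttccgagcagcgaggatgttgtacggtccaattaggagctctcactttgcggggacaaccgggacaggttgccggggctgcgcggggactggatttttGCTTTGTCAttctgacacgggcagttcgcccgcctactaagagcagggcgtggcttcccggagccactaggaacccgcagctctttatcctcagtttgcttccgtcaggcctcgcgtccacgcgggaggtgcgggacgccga
Srxn1: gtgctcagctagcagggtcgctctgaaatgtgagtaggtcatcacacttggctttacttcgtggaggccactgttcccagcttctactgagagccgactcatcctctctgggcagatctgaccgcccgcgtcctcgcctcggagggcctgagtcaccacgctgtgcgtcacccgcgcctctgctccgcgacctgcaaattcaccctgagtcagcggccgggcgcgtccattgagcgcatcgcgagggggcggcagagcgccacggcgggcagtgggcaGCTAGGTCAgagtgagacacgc
The core was found once each in the windows of Gclm, Srxn1 and Nfe2l2 and in the printed window of Txnrd1. These letters are not in the other Txnrd1 windows, nor in those of Nqo1, Nfe2l3, Slc7a11 or Gstm1. No window was available for Gclc or Hmox1. Over all 32851 windows, 12.4% held a match, and over the windows of tested genes 14.0%. The Srxn1 window also held 2 palindromic AP-1 sites, searched as TGANTCA on both strands, against 7.81% of all windows with at least 1 such site. Neither AP-1 site overlaps the marked core, and other forms of the antioxidant response element were not searched. The core of the xenobiotic response element, GCGTG, which the aryl hydrocarbon receptor binds, is not in the Nqo1 or Nfe2l3 window, against 32.4% of all windows with a match. A match of letters shows no binding, and DNA beyond these windows was not searched. A window without a match is thus no evidence that its gene lacks the element.

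Paxip1 was lower in both knockouts, at 5.69 and 3.98 CPM (counts relative to the TMM-scaled library size) in knockouts 1 and 2, against 28.3 and 44.3 CPM in controls 1 and 2. Its log2 fold change was -2.91 (SE 0.48), with an adjusted p of 0.15 in edgeR's quasi-likelihood test, which does not pass the threshold of 0.05, and 9.03e-06 in DESeq2. Library totals were 17770831 to 19142757 counts in knockouts and 15154246 to 15394782 in controls. Sex-linked genes differed between the libraries of each group. Xist stood at 116 and 5.83 CPM in the knockouts, against 58.3 and 211 CPM in the controls. Uty, a gene of the Y chromosome, stood at 0.256 and 31.7 CPM in the knockouts, against 13.2 and 2.93 CPM in the controls. RNA of other cell types was also counted. Ambn, an enamel matrix gene of ameloblasts, stood at 31001 and 41111 CPM in the knockouts, against 52583 and 18171 CPM in the controls. Its groups overlapped, but of 13 tested dental epithelium markers 8 were lower and 0 higher in both knockouts (median log2 fold change -1.15). Their summed level, mostly Ambn, was 34973 to 42111 CPM in knockouts and 22948 to 63763 CPM in controls. Of 13 tested leukocyte markers, 12 were lower and 0 higher in both knockouts (summed level 272 to 1114 CPM in knockouts, 2290 to 7683 CPM in controls, with Cd3e at 0 in every library). All 12 tested erythroid markers were lower in both knockouts (222 to 230 CPM against 808 to 898 CPM), and 6 of 11 endothelial ones (913 to 936 CPM against 1141 to 1703 CPM). Of 12 tested dental mesenchyme markers, 10 were higher and 0 lower (3931 to 4003 CPM in knockouts, 1085 to 1358 CPM in controls), and of 12 odontoblast markers 4 were higher and 5 lower (17147 to 29074 CPM against 21124 to 47176 CPM). The markers of the labelled pulp cells were thus present, beside a large share of enamel epithelium RNA. The part of these differences in the results for the NRF2 genes was not tested, and in bulk samples fewer cells of a type and less RNA per cell cannot be told apart.

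Nqo1 and Nfe2l3 stood well apart from the other 8 members, which ranged from lower to modestly higher in the knockout. Of the 10 members, 6 lay above both controls in each knockout, 1 lay below them and 3 overlapped. Over all 17128 tested genes, 25.8% lay above and 24.9% below both controls in each knockout. Nqo1 and Nfe2l3 are 2 of these 6 by choice, and among the other 8 there were 4 higher (Gclm, Txnrd1, Srxn1 and Gstm1) and 1 lower (Gclc). The median log2 fold change was 0.75 over the 10 members and 0.58 over the 8, against 0.0024 over all tested genes. The median of the 8 was 0.79 without control 1 and 0.22 without control 2. In edgeR, 0% of all genes were called in either direction at an adjusted p of 0.05, so none of the 8 was, with adjusted p-values of 0.251 to 0.956. At an unadjusted p under 0.05, 2 of the 8 were higher and 0 lower, against 7.32% and 9.89% of all tested genes. DESeq2, which called 2.72% of genes higher and 5.69% lower, called none of the 8 (lowest adjusted p = 0.215), and limma-voom called 0 genes in all.

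**Figure D1:**
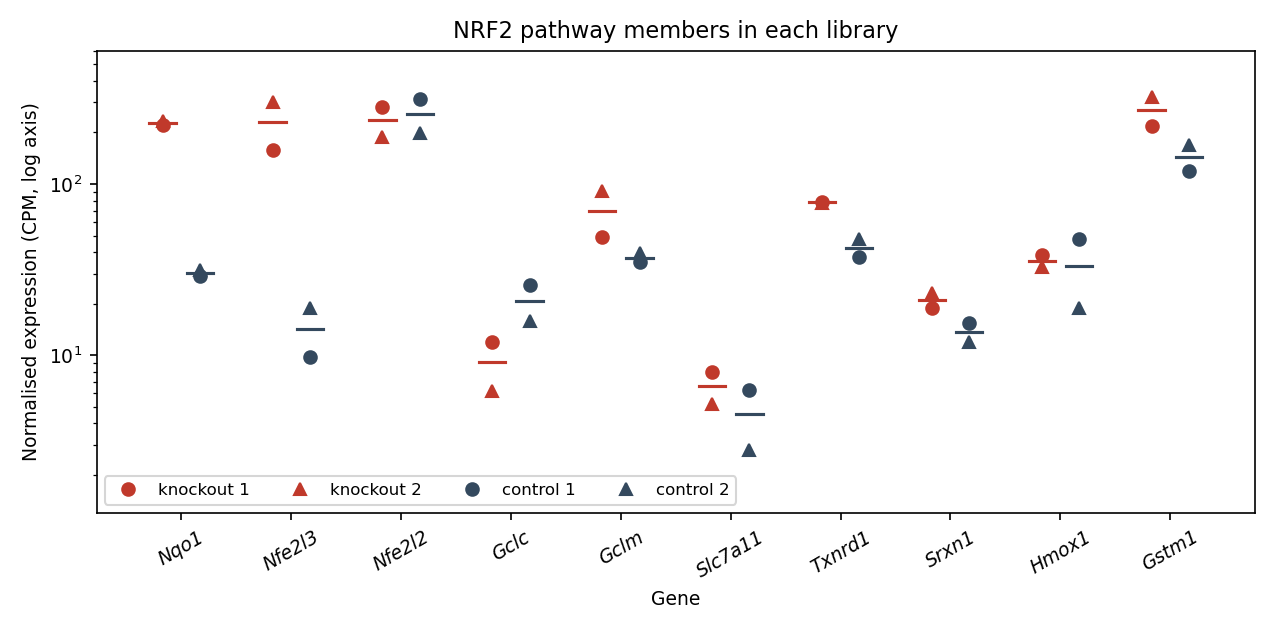
Normalised expression (CPM, log axis) of the 10 members in each library. Red marks are knockouts and dark marks controls, circles are replicate 1 and triangles replicate 2, and bars are group means of 2 libraries. The knockouts lie far above the controls for Nqo1 and Nfe2l3, below them for Gclc, and among them for Nfe2l2, Hmox1 and Slc7a11.

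Of the transcription factor genes, Nfe2l3 was far higher in both knockouts, while the groups overlapped for Nfe2l2. Nfe2l3 (chr6:51432670-51458768, plus strand) stood at 159 and 300 CPM in knockouts 1 and 2, against 9.80 and 18.8 CPM in controls 1 and 2. Both knockouts were far above both controls, and within each group replicate 2 was the higher library. The fitted difference was 16.0-fold (log2 fold change 4.00, SE 0.53), and it lay between 3.52 and 4.52 with 1 library left out. Nfe2l2 (chr2:75675513-75704641, minus strand) stood at 282 and 189 CPM in the knockouts, against 312 and 197 CPM in the controls. The groups overlapped, with replicate 1 the higher library in each (log2 fold change -0.12, SE 0.39, adjusted p = 0.924 by edgeR). Its sign was positive without control 1 (0.28) and without knockout 2 (0.19).

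Nqo1 (chr8:107388225-107403206, minus strand) encodes NAD(P)H quinone dehydrogenase 1, which reduces quinones without releasing radicals and is the usual reporter gene of NRF2 activity. It stood at 220 and 233 CPM in knockouts 1 and 2, against 29.1 and 31.7 CPM in controls 1 and 2. The libraries of a group lay close together and the groups far apart. The fitted difference was 7.44-fold (log2 fold change 2.90, SE 0.33), and it lay between 2.86 and 2.94 with 1 library left out. On the scale of log2(CPM + 1), the Nqo1 values differed by 0.080 between the knockouts and by 0.12 between the controls. The median gene differed by 0.41 between the knockouts and by 0.53 between the controls, and Nfe2l3 by 0.91 and 0.88. Dental mesenchyme markers were higher in the same 2 libraries, at the summed levels above.

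Of the 3 genes of glutathione synthesis, Gclc was lower and Gclm higher in both knockouts, Slc7a11 overlapped, and none passed the test. Glutamate-cysteine ligase, the rate-limiting enzyme of glutathione synthesis, is a pair of a catalytic subunit from Gclc and a modifier subunit from Gclm. Gclc (chr9:77754535-77794485, plus strand) stood at 12 and 6.22 CPM in the knockouts, against 25.9 and 15.8 CPM in the controls, so both knockouts were below both controls (log2 fold change -1.19, SE 0.53, adjusted p = 0.316 by edgeR). Its log2 fold change was -0.75 without knockout 2 and -1.74 without knockout 1. Gclm (chr3:122245557-122270732, plus strand) stood at 49.2 and 90.8 CPM in the knockouts, against 34.9 and 39.5 CPM in the controls. Both knockouts were above both controls, knockout 2 most of all (log2 fold change 0.91, SE 0.41, adjusted p = 0.320 by edgeR), and the value was 0.45 without knockout 2. Slc7a11 (chr3:49892526-50443614, minus strand), which encodes the cystine importer that feeds this synthesis, stood at 7.94 and 5.21 CPM in the knockouts, against 6.26 and 2.80 CPM in the controls. These groups overlapped, with 44 to 155 counts behind each value (log2 fold change 0.54, SE 0.69, adjusted p = 0.761 by edgeR), and the value was 0.031 without control 2 and 1.26 without control 1.

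Both thioredoxin system genes were higher in both knockouts. Txnrd1 (chr10:82833951-82897712, plus strand), the gene of the cytosolic thioredoxin reductase, stood at 79.0 and 77.5 CPM in the knockouts, against 37.4 and 47.5 CPM in the controls. The knockouts were close to each other and above both controls (log2 fold change 0.88, SE 0.34, adjusted p = 0.251 by edgeR). Srxn1 (chr2:152105516-152111376, plus strand), whose product sulfiredoxin repairs over-oxidised peroxiredoxins, stood at 18.9 and 23.1 CPM in the knockouts, against 15.5 and 11.9 CPM in the controls. The groups did not overlap, and the nearest libraries of the groups lay close together (log2 fold change 0.61, SE 0.43, adjusted p = 0.527 by edgeR). It was 0.40 without control 2.

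The groups overlapped for Hmox1 and did not for Gstm1, and neither gene passed the test. Hmox1 (chr8:75093621-75100589, plus strand), the inducible heme oxygenase gene, stood at 38.3 and 32.8 CPM in the knockouts, against 48.0 and 18.8 CPM in the controls. Both knockouts lay between the controls (log2 fold change 0.09, SE 0.50, adjusted p = 0.956 by edgeR), and the value was -0.47 without control 2 and 0.95 without control 1. Hmox1 is also strong in macrophages. Of 12 tested macrophage markers, 6 were lower and 0 higher in both knockouts (24.9% and 25.8% over all tested genes). Their summed level was 93.2 to 142 CPM in knockouts and 164 to 248 CPM in controls, with no marker at 0 throughout, and their part in the Hmox1 values was not tested. Gstm1 (chr3:108012255-108017973, minus strand), a mu class glutathione S-transferase gene, stood at 219 and 323 CPM in the knockouts, against 119 and 169 CPM in the controls. Both knockouts were above both controls (log2 fold change 0.91, SE 0.37, adjusted p = 0.278 by edgeR).

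Reads of Gstm1 may be shared with its relatives. Of its transcript stretches of 50 bases, 18.9% occur in transcripts of another gene, most of them in Gstm2-ps1 and Gstm3, so its count is uncertain. For Gclm the share was 4.58%, with exons that overlap Gm17494 on the other strand and Gm6061 on the same strand, and for Slc7a11 it was 1.47%. None of the stretches of the other 7 members occurs in another annotated transcript.

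Per kilobase of annotated exon, Nfe2l3 was the third of the 10 members in the knockouts and the ninth in the controls. In knockouts the order of mean levels was Gstm1 (184 CPM per kb), Nqo1 (146), Nfe2l3 (77.1), Nfe2l2 (62.0), Hmox1 (20.3), Gclm (11.1), Txnrd1 (11), Srxn1 (7.44), Gclc (2.42) and Slc7a11 (0.472). In controls it was Gstm1 (97.8 CPM per kb), Nfe2l2 (67.2), Nqo1 (19.6), Hmox1 (19.1), Txnrd1 (5.99), Gclm (5.91), Gclc (5.54), Srxn1 (4.86), Nfe2l3 (4.82) and Slc7a11 (0.325). Libraries of neighbours overlapped for Gstm1 with Nqo1 and for Nfe2l3 with Nfe2l2 in knockouts, and for Gstm1 with Nfe2l2 and for Nqo1 with Hmox1 in controls. In controls each of Txnrd1, Gclm, Gclc, Srxn1 and Nfe2l3 overlapped its neighbours in that order, while in knockouts Gclm overlapped Txnrd1 and Srxn1. The lengths cover every annotated exon, so genes with long unused exons, such as Slc7a11, read too low on this scale.

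Ratios within a library do not depend on its scaling. Scaled by length, Gclm over Gclc was 2.45 and 8.74 in knockouts 1 and 2, against 0.808 and 1.49 in controls 1 and 2, so it was higher in both knockouts. The ratio of Nfe2l3 over Nfe2l2 was 0.720 and 2.03 in the knockouts, against 0.0401 and 0.122 in the controls. For Nqo1 over Txnrd1 it was 12.7 and 13.7 in the knockouts, against 3.55 and 3.05 in the controls, so Nqo1 was higher also relative to a target gene that was itself higher in both knockouts. These pairs were chosen after their values were seen and were not tested.

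**Figure D2:**
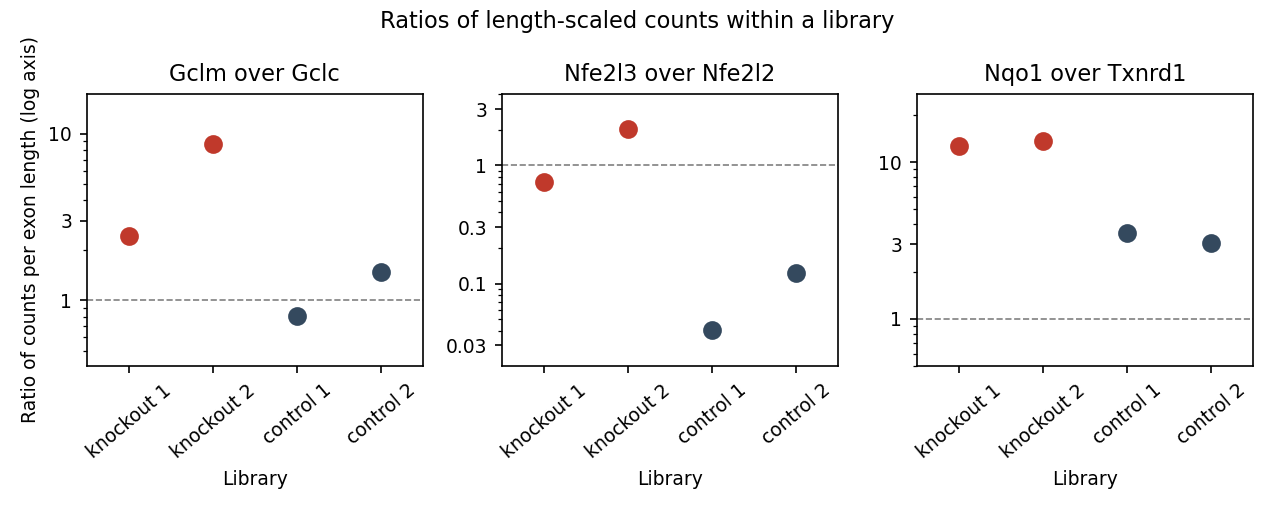
Ratios of length-scaled counts (log axes) within each library for 3 pairs of members, knockouts in red and controls dark, with a dashed line at 1. In each panel both knockouts lie above both controls, with Nfe2l3 over Nfe2l2 at 0.0401 and 0.122 in the controls.

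Among 14 partners, inhibitors and relatives of NRF2, 2 were higher in both knockouts (Keap1 and Nfe2l1), 5 were lower (Bach2, Nfe2, Mafk, Ep300 and Dpp3) and 7 overlapped, against 25.8% higher and 24.9% lower over all tested genes. The median log2 fold change was 0.055, and it was -0.21 without knockout 1, 0.38 without knockout 2 and -0.12 without control 2. None passed in edgeR, with 0 higher and 4 lower at an unadjusted p under 0.05 (7.32% and 9.89% over all tested genes). DESeq2 called Bach2 alone, as lower, against 5.69% of all genes. Keap1, the NRF2 adaptor, stood at 98.5 and 127 CPM in the knockouts, against 77.7 and 74.4 CPM in the controls (log2 fold change 0.57, SE 0.33), and Nfe2l1, the gene of a proteasome regulator related to NRF2, at 161 and 257 CPM against 91.6 and 150 CPM (0.79, SE 0.41). Both were higher in both knockouts, without passing (adjusted p = 0.440 and 0.383 by edgeR).

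The groups overlapped for Cul3 and Rbx1, subunit genes of the KEAP1 ligase, and for Sqstm1, whose product p62 sequesters KEAP1. The log2 fold change was 0.41 for Cul3 (0.10 without knockout 1), 0.35 for Rbx1 (0.071 without control 2) and 0.31 for Sqstm1 (0.012 without control 2). The groups also overlapped for the small MAF genes Mafg (-0.05) and Maff (0.07) and the repressor gene Bach1 (0.04), which lay near 0 with either sign, depending on the libraries. The co-activator gene Crebbp, whose groups overlapped, had 0.22, with a sign that turned without control 1. Dpp3, a KEAP1 binder, had -0.18 and was slightly lower in both knockouts. Ep300, the gene of the other co-activator, stood at 17.9 and 23.7 CPM in the knockouts, against 44.8 and 37.4 CPM in the controls (-0.99, SE 0.38), and the third small MAF gene, Mafk, at 55.8 and 49.5 CPM against 120 and 91.0 CPM (-1.0, SE 0.34). Neither passed (adjusted p = 0.256 and 0.212 by edgeR).

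Bach2, a repressor best known from B cells, stood at 36.8 and 8.35 CPM in the knockouts, against 228 and 163 CPM in the controls. Its log2 fold change was -3.11 (SE 0.70, adjusted p = 0.161 by edgeR and 1.97e-05 by DESeq2). The value was -4.54 without knockout 1 and -2.36 without knockout 2. Nfe2, the CNC factor of erythroid cells and megakaryocytes, stood at 7.59 and 7.34 CPM in the knockouts, against 31.6 and 13.9 CPM in the controls (-1.60, SE 0.54, adjusted p = 0.212 by edgeR), and its value was -0.87 without control 1. Both were lower in both knockouts, as were 12 of 13 leukocyte and 12 of 12 erythroid markers (24.9% over all tested genes). Those markers had the summed levels above, and their part in these values was not tested.

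**Figure D3:**
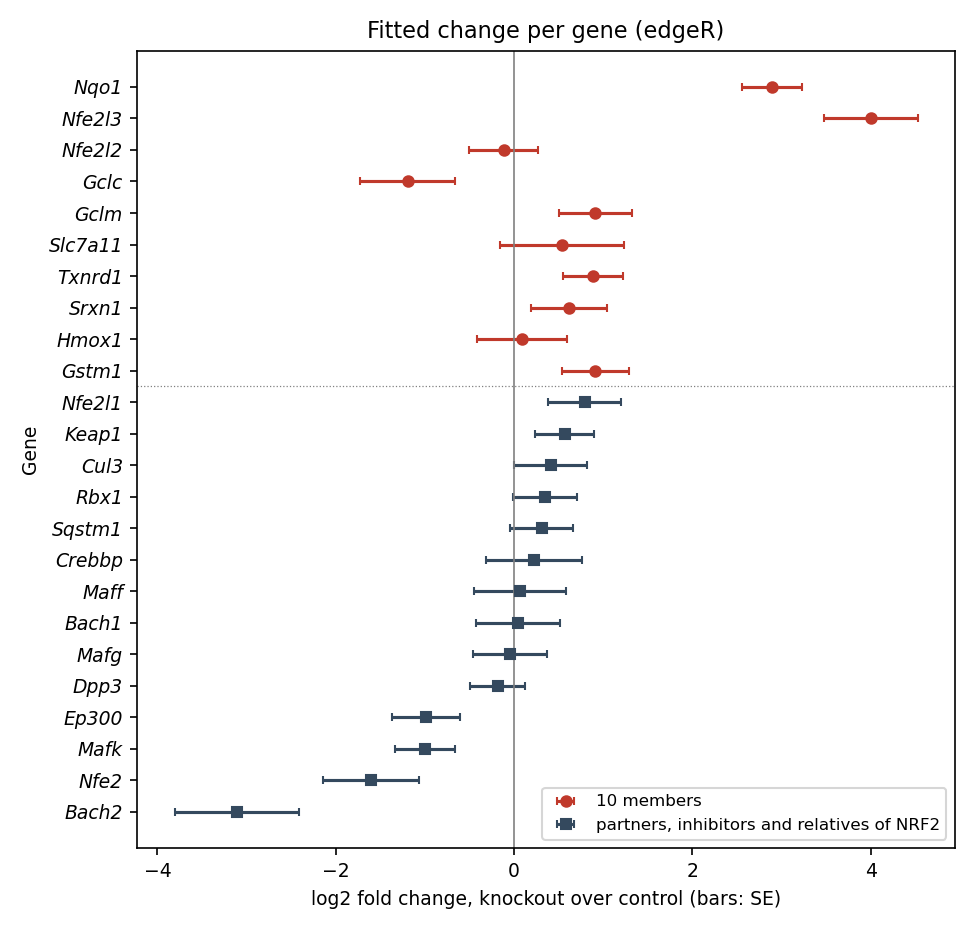
Fitted log2 fold change of knockout over control from edgeR, with bars of 1 SE, for the 10 members (red circles) and 14 partners, inhibitors and relatives of NRF2 (dark squares). Nfe2l3 at 4.00 and Nqo1 at 2.90 lie to the right of every other gene shown, and Bach2 at -3.11 lies farthest to the left.

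More of the other NRF2 target genes were higher than lower in both knockouts. Of 28 such genes outside the 10 members, all tested, 12 were higher and 5 lower, against 25.8% and 24.9% of all tested genes. Their median log2 fold change was 0.36, or 0.59 without knockout 1 and 0.40 without control 2. The edgeR test called 0, with 8 higher and 2 lower at an unadjusted p under 0.05 (7.32% and 9.89% over all genes). DESeq2 called 3 higher and 2 lower (2.72% and 5.69% over all genes). Gsr, the glutathione reductase gene, stood at 93.0 and 192 CPM in the knockouts, against 48.0 and 36.2 CPM in the controls (3.39-fold higher, adjusted p = 0.165 by edgeR and 0.00896 by DESeq2). Me1, the gene of a malic enzyme that makes NADPH, was 3.12-fold higher at 86.0 and 122 CPM against 20.6 and 46.0 CPM (log2 fold change 1.64, or 2.31 without control 2). Gsta4, the gene of a transferase that clears lipid peroxidation products, was 3.37-fold higher at 82.8 and 69.6 CPM against 24.9 and 20.4 CPM. On the lower side stood Mgst1, a microsomal transferase gene (27.8 and 18.5 CPM in knockouts, 62.9 and 54.4 CPM in controls), and Aldh3a1, an aldehyde dehydrogenase gene (12.5 and 17.1 CPM in knockouts, 28.4 and 64.0 CPM in controls, log2 fold change -1.64, or -0.97 without control 2). Blvrb, a biliverdin reductase gene, had 61.7 and 61.0 CPM in knockouts and 147 and 80.4 CPM in controls. DESeq2 called all but Blvrb (adjusted p of 0.0450 or less), and edgeR none (0.152 or more).

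Of 19 other tested genes named as glutathione S-transferases, microsomal ones included, 10 were higher and 4 lower in both knockouts (25.8% and 24.9% over all tested genes). They were grouped by name, not by descent from a shared ancestor with Gstm1. Their median log2 fold change was 0.61. Without control 1 that median was 1.02 and without control 2 it was 0.26. Gsta3, Gsta4, Gstp1 and Mgst1 were also counted among the other NRF2 targets. By edgeR 0 passed, with 5 higher and 2 lower at an unadjusted p under 0.05 (7.32% and 9.89% over all tested genes). DESeq2 called 3 higher and 1 lower (2.72% and 5.69% over all genes), with Gsta4 and Mgst1 also counted above. Gstm2 stood at 165 and 130 CPM in the knockouts, against 43.0 and 59.7 CPM in the controls, a 2.87-fold higher level, and Gstt3 was 2.76-fold higher at 33.2 and 39.5 CPM against 12 and 14.4 CPM. Gstt2, a theta class relative, had 24.9 and 17.9 CPM in the knockouts, against 58.1 and 40.5 CPM in the controls, and Mgst2 1.38 and 3.25 CPM against 11.3 and 3.95 CPM.

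A set of 32 other glutathione, thioredoxin and antioxidant enzymes had 16 genes higher and 6 lower in both knockouts (25.8% and 24.9% over all tested genes), with a median of 0.24 that was 0.70 without control 1 and 0.056 without control 2. No gene of the list passed in edgeR, with 6 higher and 2 lower at an unadjusted p under 0.05 (7.32% and 9.89% over all genes). DESeq2 called 3 higher, Gsr among them, and 1 lower (2.72% and 5.69% over all genes). Ggt7, of the gamma-glutamyltransferase family, was 3.69-fold higher at 39.5 and 58.6 CPM in knockouts, against 15.4 and 11.1 CPM in controls. Gpx8, the gene of a peroxidase of the endoplasmic reticulum, was 2.56-fold higher at 139 and 112 CPM against 42.0 and 56.0 CPM. The lower gene was Sod3, the extracellular superoxide dismutase gene, 5.26-fold lower at 35.5 and 37.6 CPM in knockouts, against 115 and 269 CPM in controls (adjusted p = 0.152 by edgeR and 9.37e-05 by DESeq2), with a log2 fold change of -2.40, or -1.69 without control 2. Ggt5 had 2.36 and 3.14 CPM in knockouts and 6.40 and 12.3 CPM in controls, and Chac1, which encodes a glutathione-degrading enzyme, 3.38 and 2.75 CPM against 16.1 and 4.07 CPM. Neither passed.

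**Figure D4:**
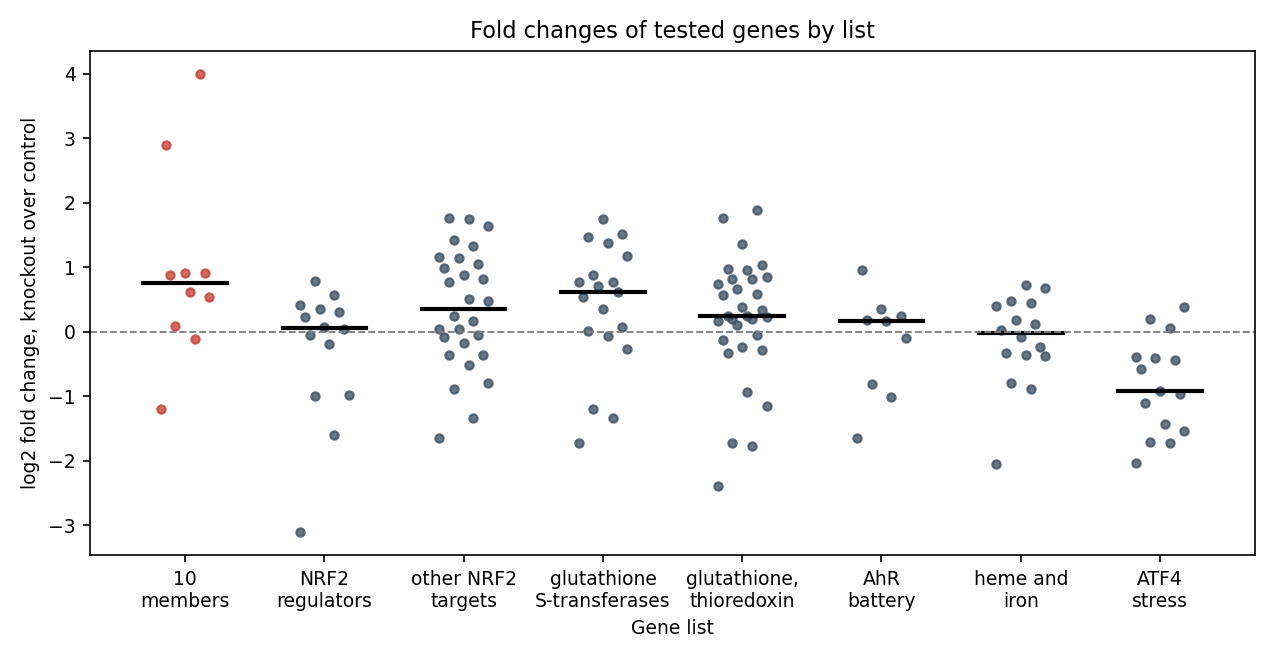
Fitted log2 fold change of knockout over control for each tested gene, by list, with the list median as a black bar and the median of all tested genes (0.0024) as a dashed line. The medians are 0.75 for the 10 members (red), 0.36 for other NRF2 targets and -0.91 for ATF4 stress genes, and lists share some genes.

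Some members are also targets of other stress factors, whose genes were examined for that reason. Nqo1 is a target of the aryl hydrocarbon receptor as well, and of 9 tested genes of that battery 2 were higher and 1 lower in both knockouts, shares of 22.2% and 11.1% that do not exceed the 25.8% and 24.9% over all tested genes, with a median of 0.17 that was 0.44 without knockout 1, -0.16 without knockout 2 and 0.02 without control 2. EdgeR's count of calls was 0, with 0 higher and 1 lower at an unadjusted p under 0.05 (7.32% and 9.89% over all genes). DESeq2 called Aldh3a1 lower, against 5.69% of all genes. Cyp1b1, a cytochrome P450 gene, stood at 35.5 and 8.13 CPM in the knockouts, against 22.2 and 66.0 CPM in the controls, and Ahrr, the repressor of the receptor, at 2.0 and 0.616 CPM against 1.18 and 3.44 CPM. Both overlapped between the groups. Nqo2, the second quinone reductase gene, was higher in both knockouts at 44.3 and 40.2 CPM, against 14.6 and 28.8 CPM in controls (log2 fold change 0.96, SE 0.44, adjusted p = 0.332 by edgeR). Arnt and Arnt2, genes of partners of the receptor, had log2 fold changes of 0.24 and 0.36.

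Slc7a11 is also a target of ATF4, the factor of the amino acid and unfolded protein response. None of 15 genes of that response was higher and 7 were lower in both knockouts (25.8% and 24.9% over all tested genes), with a median of -0.91. In edgeR 0 passed, with 0 higher and 4 lower at an unadjusted p under 0.05 (7.32% and 9.89% over all tested genes). DESeq2 called 3 lower, against 5.69% of all genes. The median was -0.52 without knockout 2, -0.36 without control 1 and -1.37 without control 2. Trib3, a pseudokinase gene, stood at 7.94 and 9.92 CPM in the knockouts, against 61.4 and 12.2 CPM in the controls, and Psat1, of serine synthesis, at 36.4 and 18.8 CPM against 139 and 41.0 CPM. Without control 1 the log2 fold change was -0.43 in place of -2.04 for Trib3, and -0.54 in place of -1.70 for Psat1. Ddit4, an inhibitor of mTORC1, was 2.68-fold lower at 55.1 and 85.3 CPM against 182 and 195 CPM (adjusted p = 0.165 by edgeR and 0.0201 by DESeq2). On the other side Asns, Slc3a2 and Atf5 had log2 fold changes of 0.39, 0.19 and 0.06, and their groups overlapped. Slc3a2 encodes the partner chain of the Slc7a11 transporter.

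Of 16 heme and iron genes around Hmox1, 5 were higher and 5 lower in both knockouts, near the 25.8% and 24.9% over all tested genes, with a median of -0.03 that was 0.03 without control 2. EdgeR called 0, with 0 higher and 1 lower at an unadjusted p under 0.05 (7.32% and 9.89% over all tested genes). DESeq2 called Tfrc lower, against 5.69% of all genes. Tfrc, the transferrin receptor gene, strong in erythroid precursors, stood at 20.6 and 11.2 CPM in the knockouts, against 63.3 and 68.6 CPM in the controls (4.14-fold lower, adjusted p = 0.154 by edgeR and 0.000935 by DESeq2), beside the lower erythroid markers, whose part was not tested. Fth1, the ferritin heavy chain gene, stood at 1463 and 1272 CPM in the knockouts, against 3058 and 1691 CPM in the controls, and reads of its processed copies could add to its count. Hmox2, the constitutive heme oxygenase gene, had a log2 fold change of 0.68, Cpox 0.72 and Slc48a1, a heme transporter gene, 0.48, each higher in both knockouts.

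The tested genes whose pattern over the 4 libraries lay nearest to that of Nqo1 were Foxf1, Olfml1, Ccdc40, Macrod2 and Angpt4, at Euclidean distances of 0.19, 0.22, 0.24, 0.28 and 0.36 on gene-centred log2(CPM + 1) values. Foxf1, a mesenchymal forkhead factor gene, stood at 128 and 125 CPM in the knockouts, against 18.6 and 18.8 CPM in the controls. Nearest to Nfe2l3 were Apod, Etnppl, Pcdhb9, Scin and Sec14l4, at 0.41, 0.54, 0.73, 0.77 and 0.79. Apod, the apolipoprotein D gene, stood at 2703 and 3450 CPM in the knockouts, against 139 and 249 CPM in the controls, so replicate 2 was the higher library of each group, as for Nfe2l3. None of these 10 genes was on a list of NRF2 targets used here. With 0.1 CPM added in place of 1, 3 of the 5 genes near Nqo1 and 1 of the 5 near Nfe2l3 remained among the nearest 5.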

How the data were processed

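Per the labels' protocols, cDNA of sorted cells was primed on poly(A) tails with oligo-dT, extended by template switching and, after 14 cycles of PCR, fragmented from 50 ng with a transposase kit, which marks neither strand nor molecules. The deposited values are raw counts per Ensembl gene ID in 1 table. Bowtie2 2.3.5.1, Trim Galore 0.6.6 and, for the counts, featureCounts 2.0.1 are named with the build GRCm38 in the submitters' processing notes. Not given in the sources used here are the strand setting, the annotation release and the handling of multiply matching reads. Symbols and coordinates came from GENCODE M21 (GRCm38), which held 55227 of the 55487 IDs.

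The main test was edgeR's quasi-likelihood test (edgeR 4.0.16, R 4.3.3) with TMM scaling, genotype as the only term, the 17128 genes kept by filterByExpr, two-sided p-values with Benjamini-Hochberg adjustment over all of them, and a threshold of 0.05. Standard errors (SE) were taken as the absolute log2 fold change divided by the square root of F. Alternatives were DESeq2 1.42.0, limma-voom (limma 3.58.1), other scalings and filters, a replicate block and leaving out each library. A count of 3 is 0.154 to 0.209 CPM, which covers counting error only. The labels do not say that replicates are separate animals, so p-values measure the spread between these libraries and may not measure that between animals. The levels of Xist and Uty differed within each group, so its libraries were not repeats of the same RNA.

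The members and gene lists were chosen with earlier results of these data known. Some genes are on more than 1 list and are counted in each. Named are the 10 members, Paxip1, all tested NRF2 regulators, up to 3 genes with the smallest edgeR p in each direction of each other list, and the 5 genes nearest to Nqo1 and to Nfe2l3. No p was adjusted over a list alone and no set test was run.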

Additional observations from a re-analysis of the deposited data

How the results depend on the processing

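All 10 members kept their direction in DESeq2, limma-voom, both other scalings, both other filters and the block. Those higher in both knockouts numbered 6 in each, with Nqo1 and Nfe2l3 among them by choice. That count rests on the scaled levels alone. It could not change in limma-voom or with the block, and the other settings only rescale whole libraries, so it is no check of the result. Over all genes, 0 were called by edgeR in either direction, against 472 higher and 989 lower in DESeq2 and 449 and 1005 without the low-count filter. The fit without the filter had infinite prior degrees of freedom, against 4.85 in the main fit. It thus gave a gene's own spread no weight, so its likeness to DESeq2 is no support for the calls. Of the genes on the pathway lists, DESeq2 called 7 higher and 8 lower, as many as the fit without the filter (7 and 8). Same-numbered libraries share only a number as far as the labels say. Their deviations from the group means correlated at 0.22 over genes, and the replicate block called 59 higher and 185 lower genes, 1 of them on the pathway lists (lower).

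With 1 library left out, calls over all genes ranged from 0 to 215 higher and 0 to 703 lower, and on the pathway lists from 0 to 3 higher and 0 to 4 lower. Members with every remaining knockout above every remaining control then numbered 6 to 8, and those with the reverse order 1 to 3. With fewer libraries the groups separate more easily, and the share over all tested genes was not computed for these fits. The median log2 fold change ranged from 0.58 to 0.84 over the 10 members and from 0.22 to 0.79 over the 8 others. Paxip1 passed in DESeq2 (-2.92) and in the fit without the filter (-2.92), which carries the limit above. Its log2 fold change ranged from -3.18 to -2.59 with 1 library left out. Signs turned with a library left out for Nfe2l2 (-0.45 to 0.28), Hmox1 (-0.47 to 0.95), Bach1 (-0.39 to 0.43), Maff (-0.48 to 0.89), Mafg (-0.29 to 0.22), Crebbp (-0.32 to 1.13), Ahrr (-1.88 to 0.095), Atf5 (-0.33 to 0.40) and Slc3a2 (-0.12 to 0.57). With the stricter filter Atf5 was -0.018, Bach1 -0.050 and Maff -0.022. Bach1 was -0.0035 with the block, and Mafg 0.00073 on library totals only. The cause was not tested. The genes nearest to Nqo1 shared 3 of 5 with 0.1 CPM added and 3 of 5 with 5 CPM, and those nearest to Nfe2l3 1 of 5 and 4 of 5.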
